A study of Mus musculus with 8 samples.

Results

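The troponin genes of the mouse are 8: Tnni1, Tnni2 and Tnni3 for troponin I, Tnnt1, Tnnt2 and Tnnt3 for troponin T, and Tnnc1 and Tnnc2 for troponin C. They were taken by symbol from the deposited table of 48440 entries, and all 8 were found with at least 1 count. Of the 13771 genes with enough counts for a test, 7 were troponin genes, and Tnnc2 was left out because of its low counts. RNA came from purified cardiomyocytes of C57BL6/J pups at postnatal day 2, and each of 4 litters gave 1 male and 1 female heart. The 4 male and 4 female libraries, each from a heart of its own, therefore shared strain, age and cell type, and differed in the sex and the litter of the pup. No treatment or altered allele is given for any of them. The data answer 2 questions: whether troponin transcripts differed between male and female cardiomyocytes, and whether they differed between litters.

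Troponin is the calcium switch of striated muscle. Troponin C binds calcium, troponin I holds the thin filament in its blocked state until calcium arrives, and troponin T anchors the complex to tropomyosin. Each subunit has a cardiac, a slow skeletal or a fast skeletal form: Tnni3, Tnnt2 and Tnnc1 encode the forms of the adult heart, Tnni1 and Tnnt1 those of slow skeletal fibres, and Tnni2, Tnnt3 and Tnnc2 those of fast skeletal fibres. Tnnc1 serves heart and slow muscle alike. The rodent heart is known to be born with both slow skeletal and cardiac troponin I and to lose the slow form in the weeks after birth.

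Total counts per library ran from 14226342 to 24910243, and the 8 troponin genes together took 1.97% to 2.21% of them. Levels are given as CPM, that is, counts divided by the TMM-adjusted library total, on a common scale, or per transcript length as RPKM, which divides CPM by the length in kilobases of the longest coding transcript of the gene. All 10 genes of the cardiomyocyte marker list had counts in every library, with a summed level of 49625 to 67987 CPM. Unlike the CPM of single genes, sums over gene lists here and below use library totals without the TMM factor. These factors ran from 0.951 to 1.02. Of 21 skeletal muscle markers, 10 had at most 3 counts in any library. Of these 10, 5 had 0 counts in all libraries, among them the adult fast myosins Myh1 and Myh4 and the muscle lineage factor Myod1. The skeletal muscle list summed to between 31.8 and 49.7 CPM. The level of a transcript in such bulk RNA does not tell fewer cells of a type from less RNA per cell.

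A troponin I gene lies near a troponin T gene in each of 3 places of the genome (GRCm38, which the submitters' notes name as mm10; genes from GENCODE M21). Tnni1 (ENSMUSG00000026418) at chr1:135779434-135810989 and Tnnt2 (ENSMUSG00000026414) at chr1:135836354-135852260 are on the plus strand with Lad1 between them. Tnni3 (ENSMUSG00000035458) at chr7:4518305-4524229 and Tnnt1 (ENSMUSG00000064179) at chr7:4504570-4516382 are on the minus strand, 1922 bases apart. The fast pair of Tnni2 (ENSMUSG00000031097) at chr7:142441808-142444410 and Tnnt3 (ENSMUSG00000061723) at chr7:142498836-142516009 is on the plus strand with Lsp1 between them. Tnnc1 (ENSMUSG00000091898) at chr14:31208312-31211729, plus strand, lies within the span of Nisch on the other strand and shares no exon base with it. Tnnc2 (ENSMUSG00000017300) at chr2:164777161-164779967, minus strand, shares 74% of its exon bases with Ube2c, a mitotic ubiquitin-conjugating enzyme gene on the opposite strand.

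Promoter windows from RefSeq (GRCm38.p6), 250 bases before to 50 bases after a transcript start, were found for 6 of the 8 genes, and not for Tnni2 and Tnnt3. Those of the 5 genes with the highest levels are shown because the values described here are mostly theirs. Capitals mark matches on either strand to TATAAA (the TATA box), CATTCC (the M-CAT element, which TEAD factors bind) and GATAA (the GATA element, which GATA factors bind), and positions give the leftmost base of a match, counted from the transcript start as 0. Tnni1 is shown at chr1:135799171-135799470 on the plus strand, inside the annotated span of the gene. Tnni3 is at chr7:4522479-4522778, minus strand, Tnnt1 at chr7:4515926-4516225, minus strand, Tnnt2 at chr1:135836084-135836383, plus strand, and Tnnc1 at chr14:31208062-31208361, plus strand.
Tnni1: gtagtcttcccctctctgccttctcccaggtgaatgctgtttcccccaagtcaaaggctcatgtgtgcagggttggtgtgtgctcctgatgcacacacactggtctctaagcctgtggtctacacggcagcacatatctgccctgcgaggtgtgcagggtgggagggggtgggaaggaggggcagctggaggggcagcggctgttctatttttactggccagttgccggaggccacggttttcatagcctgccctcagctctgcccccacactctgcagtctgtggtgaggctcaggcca
Tnni3: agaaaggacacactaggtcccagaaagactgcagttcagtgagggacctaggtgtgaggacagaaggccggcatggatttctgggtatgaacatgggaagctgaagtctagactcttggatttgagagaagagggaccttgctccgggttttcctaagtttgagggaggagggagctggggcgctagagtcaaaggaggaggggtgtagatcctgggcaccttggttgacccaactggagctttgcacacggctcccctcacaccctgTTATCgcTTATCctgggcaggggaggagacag
Tnnt1: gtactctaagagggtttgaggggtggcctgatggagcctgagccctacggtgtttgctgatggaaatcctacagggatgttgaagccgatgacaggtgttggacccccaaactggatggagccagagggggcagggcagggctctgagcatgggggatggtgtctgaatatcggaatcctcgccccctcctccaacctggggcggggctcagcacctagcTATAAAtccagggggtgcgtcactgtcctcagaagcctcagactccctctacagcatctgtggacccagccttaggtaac
Tnnt2: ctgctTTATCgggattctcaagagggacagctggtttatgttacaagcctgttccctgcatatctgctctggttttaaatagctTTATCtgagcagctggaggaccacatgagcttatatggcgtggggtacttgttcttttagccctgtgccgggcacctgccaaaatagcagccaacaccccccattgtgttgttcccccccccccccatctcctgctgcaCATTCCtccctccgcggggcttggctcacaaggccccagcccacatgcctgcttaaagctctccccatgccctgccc
Tnnc1: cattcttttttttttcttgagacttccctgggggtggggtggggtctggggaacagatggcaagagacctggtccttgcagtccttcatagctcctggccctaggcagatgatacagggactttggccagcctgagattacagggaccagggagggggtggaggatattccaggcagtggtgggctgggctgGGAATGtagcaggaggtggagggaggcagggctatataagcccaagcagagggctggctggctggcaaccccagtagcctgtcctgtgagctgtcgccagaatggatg
Tnni1 and Tnnt2 each had 2 windows, of which the first is shown, and the second held none of these letters in either gene. The shown Tnnt2 window held 1 M-CAT element at -27 and 2 GATA elements at -245 and -166, and the Tnnc1 window held 1 M-CAT element at -58. The Tnni3 window held 2 GATA elements at +18 and +25, the Tnnt1 window a TATA box at -30, and the Tnni1 window none of these letters. The CArG box, to which serum response factor binds, was searched as well and was found in none of the windows of these 5 genes. Among all 32851 promoter windows of this length, 13.6% held the TATA box, 14.7% the M-CAT element, 25.4% the GATA element and 1.6% the CArG box, so each match is a description and common by itself.

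By the length of the longest coding transcript, cardiac troponin T was the most abundant troponin transcript, and the slow form of troponin I stood below the cardiac one. Tnnt2 had 10250.0 ± 639 RPKM (SD, n = 8 for this and the next values), with 9623 in the lowest library and 11185 in the highest. Tnnc1 followed with 3681 ± 468 RPKM (2971 to 4196) and Tnni3 with 3412 ± 291 RPKM (3071 to 3843). Their ranges overlapped, so the order of these neighbours is not set beyond their spread. Tnni1 had 2079.5 ± 254 RPKM, from 1811 to 2526, below every library of Tnni3. The remaining forms were rare: Tnnt1 had 62.5 ± 8.08 RPKM and Tnni2 6.25 ± 1.51 RPKM. Tnnt3 was at 0.621 ± 0.0443 RPKM, from 9 to 17 counts per library, and Tnnc2 at 0.147 ± 0.0900 RPKM. These ranges did not overlap between any neighbours other than Tnnc1 and Tnni3. The order at the top rests on the length used: with the merged exons of each gene as its length, Tnnc1 (2550 ± 324 RPKM) stood above Tnnt2 (1587 ± 98.9 RPKM), and the order of the other 6 was the same.

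**Figure D1:**
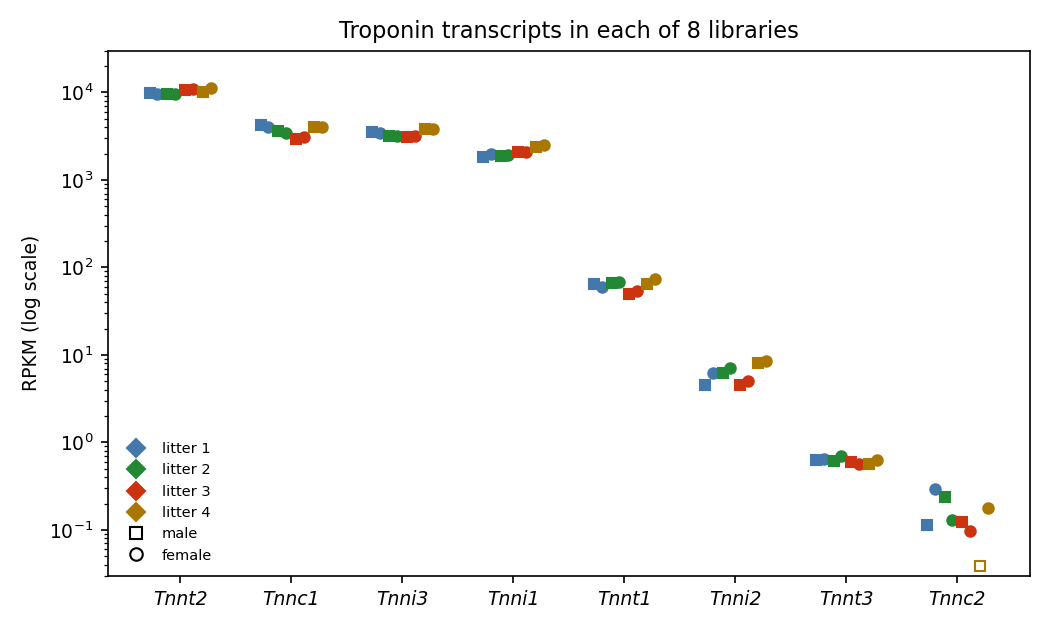
RPKM (CPM per kilobase of the longest coding transcript, log axis) of each troponin gene in each of 8 libraries, with color for the litter, squares for males and circles for females. Tnnt2 lies near 10250.0 RPKM and Tnnc2 near 0.147 RPKM, and the open square marks the male of litter 4, which had 0 counts of Tnnc2 and is placed at the foot of the axis.

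Troponin I was the only subunit that these cells carried in 2 forms at comparable amounts. Tnni1 made up 39.5% and 41.7% of troponin I counts in the male and the female of litter 1, 42.4% and 42.8% in litter 2, 46.1% and 45.0% in litter 3, and 43.9% and 45.5% in litter 4. The male of litter 1 was lowest, with a 95% Wilson interval of 39.2% to 39.7%, and the male of litter 3 highest, with 45.8% to 46.3%. Such intervals cover counting error only. Per length of the longest coding transcript the share of Tnni1 was 34.1% to 40.4%, since its transcript is longer than that of Tnni3. With merged exons as lengths the share is lower still, as Tnni1 averaged 664 RPKM and Tnni3 1508 RPKM. Tnni2 gave 0.0661% to 0.105% of troponin I counts, and Tnni3 the remainder of 53.9% to 60.5%.

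The other subunits were almost wholly of the cardiac form. Tnnt2 gave 99.4% to 99.6% of troponin T counts, Tnnt1 0.408% to 0.609%, and Tnnt3 at most 0.00651%. Tnnc2 had 2, 4, 2 and 0 counts in the males of litters 1 to 4 and 5, 2, 1 and 3 in the females. These sit beside 32418 to 75422 counts of Tnnc1. The 0 counts of 1 library allow up to 3 of its 18849002 counts. Of the 100-base windows of the Tnnc2 transcript, 25.6% also occur in Ube2c, which had 143 to 996 counts, and whether counting used the strand is not given in the sources used here, so the Tnnc2 counts are uncertain. No 100-base window of the other 7 genes occurs in another gene. Tnni3 does share 86 exon bases (4.17%), fewer than a window, with Dnaaf3 on the same strand, which had 13 to 55 counts.

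The balance of slow to cardiac troponin I was followed as the ratio of Tnni1 to Tnni3 counts within each library, which needs no scaling between libraries. It was 0.653 and 0.717 in the male and the female of litter 1, 0.736 and 0.751 in litter 2, 0.855 and 0.819 in litter 3, and 0.784 and 0.837 in litter 4. Both libraries of litter 1 lay below all others, and those of litters 3 and 4 above all others, with males and females interleaved. By litter the means were 0.685 ± 0.0455, 0.744 ± 0.0104, 0.837 ± 0.0253 and 0.810 ± 0.0376 (SD, n = 2 each). The male mean was lower by 0.05 on the log2 scale and the male was the higher of the pair in 1 of 4 litters. The difference between sexes did not pass an exact two-sided permutation test over the 70 assignments of libraries to sex (p = 0.657, adjusted over 3 ratios 0.971, the smallest possible being 0.0286). Litters held 90.2% of the variance of the log2 ratio after the sexes were centred. In an exact one-sided test over the 24 ways to match females to males this gave p = 0.0833, the smallest possible being 0.0417. Adjusted over 3 ratios it was 0.125. A pass under 0.05 after adjustment would need all 3 ratios at that smallest value. The test therefore cannot decide whether the ratio differed between litters.

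The ratio of slow to cardiac troponin T stood apart in 1 litter. Tnnt1 to Tnnt2 per length was 0.00651 and 0.00617 in the male and the female of litter 1, 0.00688 and 0.00694 in litter 2, 0.00465 and 0.00481 in litter 3, and 0.00644 and 0.00663 in litter 4. Both libraries of litter 3 lay below the other 6. Litters held 98.6% of the variance of its log2 value, with the same exact p of 0.0833 (adjusted 0.125) and the same limit. The difference between sexes was -0.01 on the log2 scale (exact permutation p = 0.971, sign-flip p = 0.875). For Tnnc2 to Tnnc1, which rests on 0 to 5 counts, the log2 difference of -0.72 between males and females gave an exact permutation p of 0.371, and the test by litter gave 0.75. That difference ran from -1.17 to -0.13 when litters or libraries were left out.

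Further ratios were chosen after their values were seen and were not tested. Tnnt2 to Tnnc1 sets the subunit that anchors the complex against the one that binds calcium. Per length, Tnnt2 to Tnnc1 averaged 2.38 in litter 1, 2.73 in litter 2, 3.58 in litter 3 and 2.65 in litter 4. Both libraries of litter 3 were above the other 6. In contrast, Tnni1 to Tnnt2 counts averaged 0.185, 0.187 and 0.184 in litters 1 to 3 and 0.221 in litter 4.

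**Figure D2:**
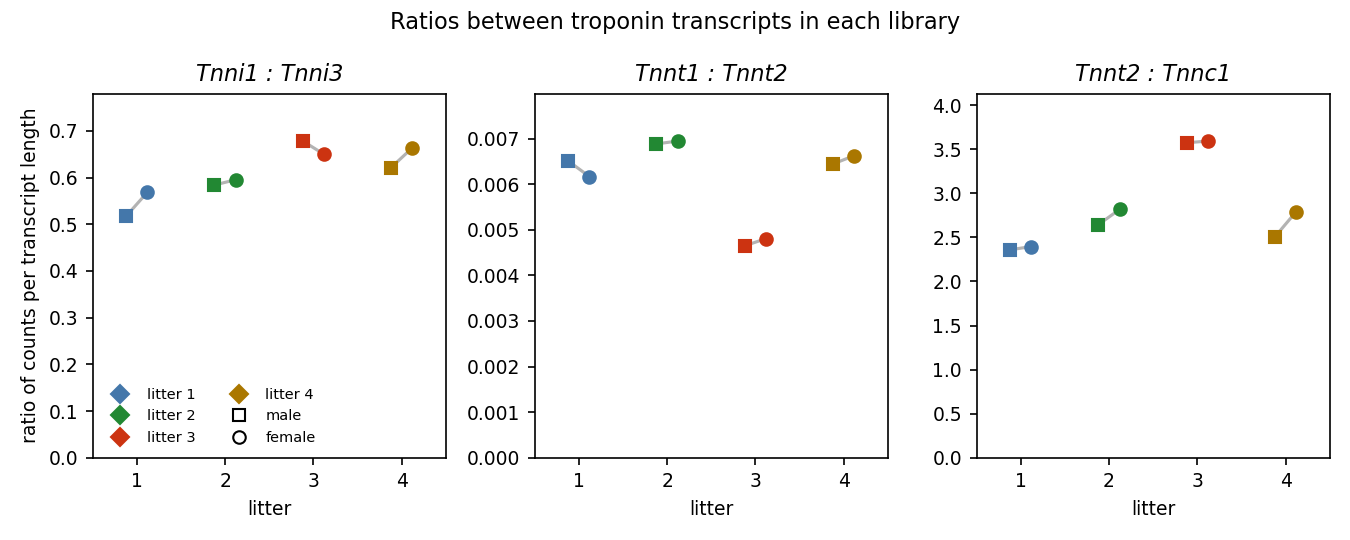
Ratios of counts per transcript length in each library, from left to right Tnni1 to Tnni3, Tnnt1 to Tnnt2 and Tnnt2 to Tnnc1, by litter, with squares for males, circles for females and a line joining the pair of a litter. Each axis starts at 0, and litter 3 is lowest in Tnnt1 to Tnnt2 and highest in Tnnt2 to Tnnc1 (mean 3.58).

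No troponin gene differed between male and female cardiomyocytes by a test. In edgeR's quasi-likelihood test 0 of 7 troponin genes passed an adjusted p of 0.05, where 0.0436% of all tested genes did (6 of 13771). At an unadjusted p under 0.05 there were 306 genes and again 0 troponin genes, the lowest value being 0.402 for Tnni2. When litter entered the model as a block, so that the sexes were set against each other within litters, 29 genes passed (0.211%) and 0 of the 7, the lowest unadjusted value of a member being 0.143. The differences, male minus female on the log2 scale, were -0.06 for Tnni1 (SE 0.12), 0.00 for Tnni3 (SE 0.10) and -0.20 for Tnni2 (SE 0.23). Troponin T gave -0.04 for Tnnt2 (SE 0.09), -0.05 for Tnnt1 (SE 0.13) and -0.08 for Tnnt3 (SE 0.24), and Tnnc1 gave 0.03 (SE 0.13). For each of the 7 genes the ranges of the male and the female libraries overlapped, and for the 4 abundant ones the SE with the block was 0.05. The male was below the female in 4 of 4 litters for Tnni1 and for Tnni2, neither of which passed with the block. In the fit without the block, the sign of Tnni1, Tnni3, Tnnt1 and Tnnc1 turned when single libraries were left out, while that of Tnni1 with the block was -0.06.

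Between litters, troponin transcripts differed by modest amounts. The test of the 3 litter coefficients together passed for 5 of 7 troponin genes, Tnnc1, Tnni1, Tnnt1, Tnni3 and Tnni2, where 32.1% of all tested genes passed. The size of the difference, taken as the log2 range between the highest and the lowest litter, had a median of 0.38 over the 7 genes and of 0.37 over all genes tested. The median of the troponin genes was thus close to that of all genes. Anything else that the hearts of a litter shared cannot be told apart from the litter.

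Slow troponin I was highest in litter 4. Tnni1 stood at 2083 and 2253 CPM in the male and the female of litter 1, at 2158 and 2191 in litter 2, at 2395 and 2401 in litter 3, and at 2746 and 2905 in litter 4. Both libraries of litter 4 were above the other 6, and those of litter 3 above those of litters 1 and 2. The log2 range was 0.38, a difference of 30.3% (edgeR adjusted p = 0.00322). Against the mean of the other 3 litters, litter 4 was higher by 0.33 (SE 0.05, adjusted p = 0.00487). Without litter 4 the test across litters gave an adjusted p of 0.105, and without litter 3 it gave 0.00470.

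Cardiac troponin I was also highest in litter 4. Tnni3 had 3192 and 3143 CPM in litter 1, male first, 2930.5 and 2917 in litter 2, 2800.5 and 2930.7 in litter 3, and 3505 and 3472 in litter 4. Its order differs from that of Tnni1: litter 1 came next after litter 4, and litters 2 and 3 overlapped. The log2 range was 0.28 (adjusted p = 0.0196), and litter 4 was higher than the others by 0.23 (SE 0.05, adjusted p = 0.0226). With libraries scaled by their totals alone, the latter was 0.15 (adjusted p = 0.0943) and the test across litters gave 0.101. The TMM factors of litter 4 were 0.951 and 0.971, against 1.00 to 1.02 in the other litters. Leaving out litter 3 (log2 range 0.26, adjusted p = 0.0596) or litter 4 (0.14, adjusted p = 0.157) also ended the call across litters. So did leaving out either library of litter 1, where the range stayed at 0.28, or the male of litter 3, where it was 0.26.

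Fast troponin I, a form of fast skeletal fibres, was rare and moved most. Tnni2 had 87 and 115 counts in litter 1, 116 and 120 in litter 2, 80 and 56 in litter 3, and 110 and 155 in litter 4. Scaled to the library, these were 3.49 and 4.73, 4.82 and 5.39, 3.47 and 3.85, and 6.14 and 6.50 CPM, highest in both libraries of litter 4. The log2 range was 0.78, a 1.72-fold difference (adjusted p = 0.0247), larger than that of 81.5% of tested genes. Litter 4 was higher than the others by 0.57 (SE 0.15, adjusted p = 0.0306) and litter 3 lower by 0.47 (SE 0.16, adjusted p = 0.0469). This call was the least firm of the 5: it passed under 12 of 20 alternatives, and was lost with DESeq2 (0.121), without litter 3 (0.0823), without litter 4 (0.196), without either library of these litters, or without the male of litter 1 (0.0524).

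Cardiac troponin T did not pass the test between litters. Tnnt2 had 11878 and 11548 CPM in litter 1, 11619 and 11665 in litter 2, 12735 and 13324 in litter 3, and 12210 and 13422 in litter 4. All 4 libraries of litters 3 and 4 were above those of litters 1 and 2, but the log2 range was 0.16 (adjusted p = 0.163), and 10.8% of tested genes had a smaller one. With no filter on low counts the adjusted p was 0.00612.

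Slow troponin T was lowest in litter 3. Tnnt1 had 68.2 and 62.8 CPM in litter 1, 70.6 and 71.5 in litter 2, 52.2 and 56.5 in litter 3, and 69.4 and 78.5 in litter 4. Both libraries of litter 3 were below the other 6. The log2 range was 0.45, a 1.36-fold difference (adjusted p = 0.00953), and litter 3 was lower than the others by 0.37 (SE 0.07, adjusted p = 0.00310). Without litter 3 the adjusted p across litters was 0.353, and without its male alone 0.0790. Tnnt3, the fast form, had 0.614 to 0.764 CPM and a log2 range of 0.15 (adjusted p = 0.977) at 9 to 17 counts per library.

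Troponin C was lowest in litter 3 as well. Tnnc1 had 3025 and 2896 CPM in litter 1, 2640 and 2488 in litter 2, 2142 and 2229 in litter 3, and 2925 and 2888 in litter 4. The pairs of litters 1 and 4 interleaved, litter 2 lay below them, and litter 3 below all. The log2 range was 0.44, a 1.35-fold difference with the smallest adjusted p of the 7 genes (0.00203). Litter 3 was lower than the others by 0.36 (SE 0.06, adjusted p = 0.000811), litter 1 was higher by 0.22 (SE 0.06, adjusted p = 0.0206) and litter 4 by 0.19 (SE 0.06, adjusted p = 0.0490). The call in litter 1 was lost without litter 3 (0.12, adjusted p = 0.268) and without the male (0.322) or the female (0.225) of litter 1. That in litter 4 was lost with library totals alone (0.11, adjusted p = 0.218), without litter 3 (0.08, adjusted p = 0.400) and in most other alternatives. The test across litters passed under 19 of 20 alternatives, all but the one without litter 3 (0.100).

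Counted by litter, 1 of 7 troponin genes passed in litter 1 against the mean of the others (13.3% of all genes) and 0 of 7 in litter 2 (4.18%, with 2466 genes at an unadjusted p under 0.05, Tnni1 the only troponin gene among them at 0.00917). In litter 3, 3 of 7 passed, all lower, where 14.8% of genes were lower. In litter 4, 4 of 7 passed, all higher, where 4.71% of genes were higher. With litters or libraries left out, these counts ran from 1 to 4 in litter 3 and from 1 to 4 in litter 4, and litter 4 had 2 with library totals alone or with thinned counts. These 4 comparisons share libraries and are not independent. Across litters, 1 of 7 passed without litter 3 (Tnni1, where 13.7% of genes passed) and 2 of 7 without litter 4 (Tnnt1 and Tnnc1, 26.6%). Without the male of litter 1 it was 3 of 7 (21.5%) and without the male of litter 3 it was 2 of 7 (24.1%).

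**Figure D3:**
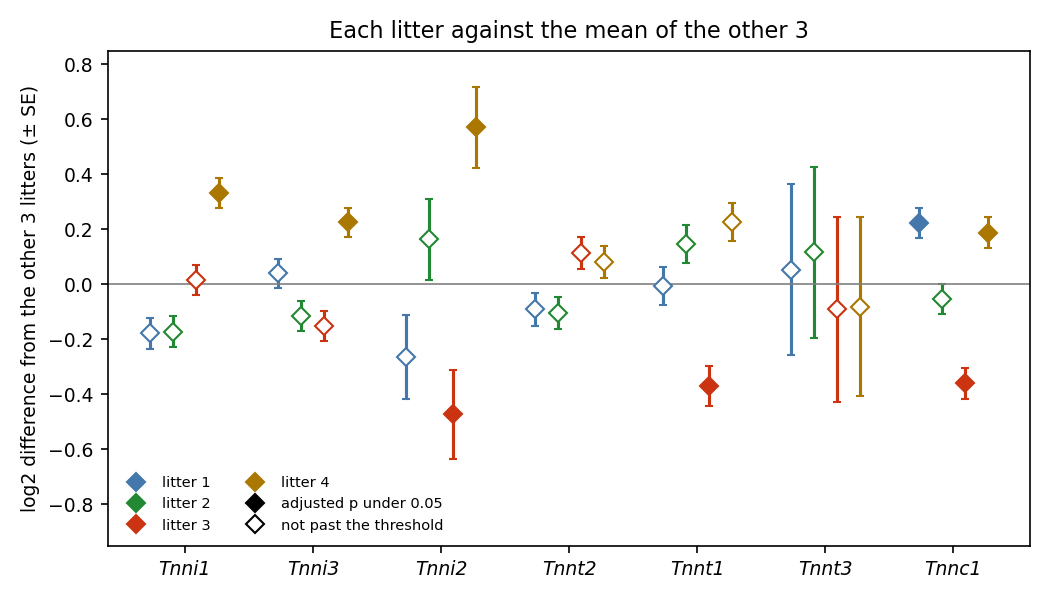
Log2 difference of each litter from the mean of the other 3 for the 7 tested troponin genes, with bars for the standard error and filled symbols for an adjusted p under 0.05. Filled symbols of litter 4 are above 0 (Tnni1 at 0.33, Tnni2 at 0.57), and those of litter 3 below 0 (Tnnc1 at -0.36, Tnnt1 at -0.37).

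Other measures moved with litter as well, and counts of marker genes past the threshold are given here for each litter against the mean of the others. Of all genes, 13.3% passed in litter 1 and 4.18% in litter 2, while 13.6% were higher and 14.8% lower in litter 3, and 4.71% were higher and 5.8% lower in litter 4. List sums use library totals without the TMM factor, and values of single genes use it. The cardiomyocyte list summed to 49625 to 52384 CPM in litter 3 and to 55053 to 67987 in the others, and none of its 10 genes was at 0. In litter 3, 4 of these were lower, among them Myh6 at a mean of 16495 CPM and Actc1 at 8505, and Slc8a1 was higher by 0.18 (adjusted p = 0.0384), with a median log2 difference of -0.07 over the list. In litter 4, Actc1 and Actn2 were higher, and Ttn, Ryr2 and Slc8a1 lower. In litter 1, 4 of the 10 were higher, and in litter 2 none passed. Of 6 ventricular markers, Irx4 and Hey2 were higher and Myl2, Myl3 and Kcne1 lower in litter 3, while Myl2, Hey2, Kcne1 and Myl3 were higher in litter 4, by 0.22 to 0.28. Litter 1 had 2 higher and 2 lower of these, and litter 2 had 1 higher. Atrial markers, 8 genes, summed to 1400 to 1691 CPM in litter 3, to 900.2 in the male of litter 2 and to 237 to 435 elsewhere. In litter 3, 3 were higher and 1 lower, in litter 1, 3 were lower, and in litter 2, 1 was higher. Most of the sum in litter 3 was Nppa, at 1175 CPM in the male and 1509.6 in the female, while Nr2f2 was the lower one, by 1.36 (adjusted p = 0.00546). Of 4 tested conduction markers, 1 was lower in litter 3.

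Markers of other cells differed between litters as follows. The fibroblast list of 8 genes summed to 53.0 and 33.1 CPM in the male and the female of litter 3 and to 105 to 246 in the others. Of these genes 6 were lower in litter 3, 6 were higher in litter 2 and 6 in litter 4, the last led by Lum at 1.40 and Dcn at 1.20 on the log2 scale (adjusted p = 0.00282 and 0.000416), and 3 were higher in litter 1. The endothelial list of 8 genes summed to 79.6 to 147 CPM in litter 2 and to 15.0 to 60.2 in the others. All 8 were higher in litter 2 and 6 were lower in litter 3, Pecam1 by 1.46 (adjusted p = 0.00552) and Cdh5 by 1.42 (adjusted p = 0.00682) among them. Of 7 mural and smooth muscle markers, 3 were lower in litter 3, Pdgfrb by 2.30, Rgs5 by 2.21 and Myh11 by 2.15, and 3 were higher in litter 4, Myh11 by 1.48, Tagln by 0.99 and Cnn1 by 0.54. In litter 1, 2 of these were lower, and in litter 2, 2 were higher. The erythroid list summed to 541 CPM and 188 CPM in the male and female libraries of litter 3 and to 99.3 to 246 in the others, with Hbb-bt higher in litter 3 by 1.29 (adjusted p = 0.0183) and Alas2 by 1.21 (adjusted p = 0.00707). Of 5 tested epicardial markers, 2 were higher in litter 2 and 2 lower in litter 3, and of 2 tested macrophage markers 1 was lower in litter 4. Of 8 tested skeletal muscle markers, Mybpc2 was higher in litter 1 and lower in litter 3, and Casq1 was higher in litter 3. Mitochondrially encoded transcripts took 15.2% to 18.5% of counts in litter 4 and 13.4% to 15.0% in the others. The part of these in the troponin values was not tested.

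Some partners of troponin on the thin filament changed between litters. Of 14 listed genes, actins, tropomyosins, tropomodulins and leiomodins among them, 8 passed across litters (57.1%, against 32.1% of all genes), with a median log2 range of 0.43, and 0 passed by sex. In litter 3, 7 were lower and 1 higher than in the others, where 14.8% of all genes were lower and 13.6% higher. Tpm1, the main tropomyosin of the heart, to which troponin T binds, stood at 7029.6 ± 218 CPM in litter 1, 6387 ± 250 in litter 2, 4868 ± 25.1 in litter 3 and 7526 ± 235 in litter 4 (SD, n = 2), lower in litter 3 by 0.52 (adjusted p = 5.62e-05). Acta2, the smooth muscle actin that fetal heart muscle also uses, was lower in litter 3 by 1.31 (adjusted p = 9.63e-07), and Lmod3, a leiomodin that nucleates actin filaments, by 0.81 (adjusted p = 5.03e-06). Without litter 3 their adjusted p across litters was 0.0818 for Tpm1, 0.146 for Acta2 and 0.102 for Lmod3, and 3 of the 14 passed, where 13.7% of all genes did.

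Of 13 thick filament genes 8 passed across litters (61.5%, against 32.1% of all genes), with a median log2 range of 0.50, and 3 passed without litter 3 (13.7% of all genes). In litter 3, 5 were lower (14.8% of all genes) and 2 higher (13.6%). Myh7, the slow myosin heavy chain that the rodent heart expresses before birth, stood at 394 ± 22.8 CPM in litter 1, 588 ± 75.7 in litter 2, 4739.8 ± 1207 in litter 3 and 1507 ± 498 in litter 4 (SD, n = 2). Its log2 range was 3.56 (adjusted p = 3.29e-08), against 0.38 for Tnni1, the slow troponin of the same period. Myh7 and Tnni1 were both lowest in litters 1 and 2, but Myh7 was highest in litter 3 and Tnni1 in litter 4. Myl2, the ventricular regulatory light chain, was lower in litter 3 by 0.39 (adjusted p = 0.000423), and its adjusted p across litters was 0.0508 without litter 3. Myom2, an M-band protein, was higher there by 0.44 (adjusted p = 0.000305) and still passed across litters without that litter.

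**Figure D4:**
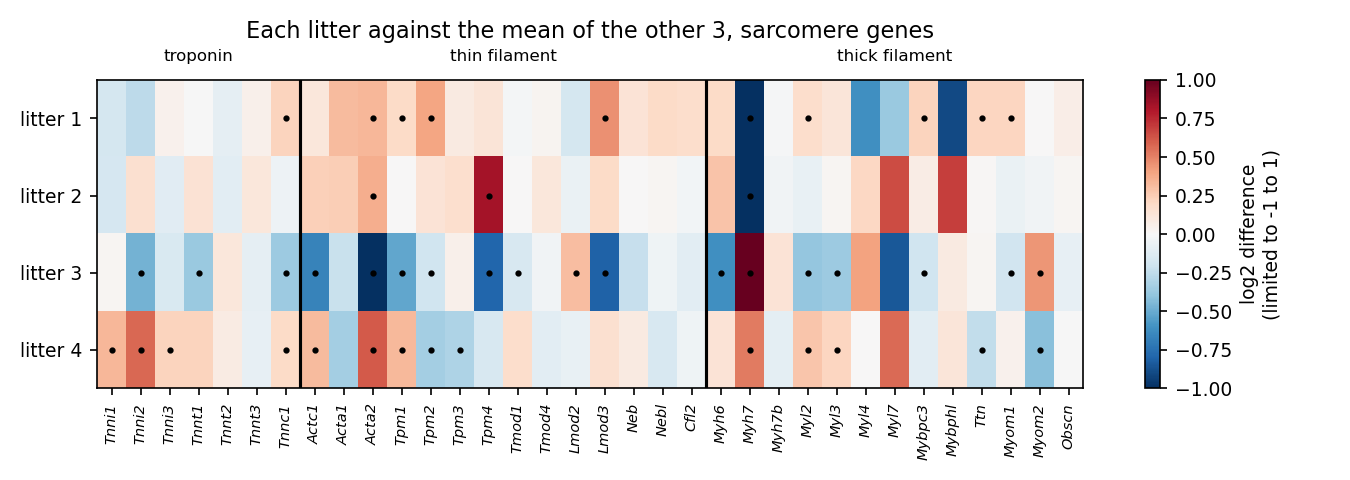
Log2 difference of each litter (rows) from the mean of the other 3 for troponin, thin filament and thick filament genes (columns), with colors limited to -1 to 1 and dots for an adjusted p under 0.05. Litter 3 has 3 dots among the troponin genes, 8 among the thin filament and 7 among the thick filament genes. Myh7 and Acta2 there lie beyond the color scale, as does Myh7 in litters 1 and 2.

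Genes that act on troponin or on its RNA passed across litters at shares near that of all genes, which was 32.1%. Of 15 kinases and phosphatases, 14 were tested and 5 passed (35.7%), with a median log2 range of 0.25. Tnni3k, a kinase that binds cardiac troponin I, was lower in litter 3 by 0.36 (adjusted p = 0.00107), with 157 ± 0.930 CPM there and 191 to 215 as means of the other litters. Prkcd was higher by 0.52 (adjusted p = 0.000977) and Prkce lower by 0.34 (adjusted p = 0.00353). Both encode forms of protein kinase C, a family that phosphorylates troponin I. Of 10 splicing factors known to act on troponin T or other sarcomere transcripts, 4 passed (40%), with a median range of 0.27. Rbm24 was higher in litter 3 by 0.44 (adjusted p = 0.000117), Mbnl2 higher by 0.36 (adjusted p = 0.00184) and Rbfox1 lower by 0.31 (adjusted p = 0.0109). Counts per gene do not show the splice forms of troponin T. Without litter 3, 0 of the kinases and phosphatases and 0 of the splicing factors passed across litters in edgeR's test, where 13.7% of all genes did. Prkce was also lost without the male of litter 3 (0.0997) and with no sex term (0.109), and Rbfox1 without litter 2 (0.0600), its female (0.0625) or the female of litter 3 (0.0875).

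Of 14 transcription factors known for troponin or other cardiac promoters, 8 passed across litters (57.1%, against 32.1% of all genes), with a median log2 range of 0.40, and 4 passed without litter 3 (13.7% of all genes). In litter 3, 6 were higher (13.6% of all genes) and 0 lower (14.8%). In litter 1, 5 were lower and 1 higher (13.3% of all genes either way), and in litter 4, 3 were lower (5.8%) and 0 higher (4.71%). Tead1, which binds the M-CAT element found in the shown Tnnt2 and Tnnc1 windows, stood at 337 ± 8.92 CPM in litter 1, 321 ± 3.26 in litter 2, 308 ± 15.2 in litter 3 and 241 ± 5.95 in litter 4 (SD, n = 2). It was lower in litter 4 by 0.42 (adjusted p = 0.00269), and did not pass across litters without litter 4 (0.320). Gata6, which binds the GATA element, was higher in litter 3 by 0.40 (adjusted p = 0.000371), and Hand2 by 0.32 (adjusted p = 0.00285). Neither passed across litters without litter 3 (0.229 and 0.0823), nor did Hand2 without litter 1 (0.0645). By sex, 0 genes of these 5 lists passed, with or without the litter block. Among cell type markers, 5 of 8 fibroblast, 1 of 8 endothelial and 1 of 10 cardiomyocyte genes passed by sex with the block. Of all genes, 0.211% did.

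The genes whose level followed Tnni1 most closely over the 8 libraries, among 13764 searched, were Fau (Pearson r = 0.981), which encodes a ubiquitin-like fusion with a ribosomal protein, Gm37317 (0.975), Fcgrt (0.972), Fkbp8 (0.962) and Cradd (0.961). Over the 6 libraries without litter 3 their r ran from 0.972 to 0.989. Fau had 80.7 to 111 CPM, highest in both libraries of litter 4. Among those that followed the log2 ratio of Tnni1 to Tnni3 most closely were Ubl7 (0.981), an entry whose symbol a spreadsheet had turned into a date (0.973), Thra (0.970) and Xab2 (0.966). Thra encodes the main thyroid hormone receptor of the heart, and had 203 and 215 CPM in litter 1, 227 and 241 in litter 2, 260.1 and 260.7 in litter 3, and 243 and 268 in litter 4. It was lowest in litter 1, as the ratio was. These libraries share litters, so such correlations describe 8 points that come in pairs.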

How the data were processed

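Gene counts were used as the authors deposited them, whole numbers by symbol with a column for each of 8 libraries and no column of another series. Per the labels' protocols, libraries were made from 1 µg of total RNA with a stranded total RNA kit and read from a single end over 100 bases, although the molecule is labelled as poly(A) RNA. The submitters' processing notes name STAR 2.7.3a and mm10. The counting program, annotation and strand setting are not given in the sources used here.

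CPM and RPKM of single genes were computed from these counts with TMM-scaled totals and GENCODE M21 transcript lengths, and log2 ratios with a pseudocount of 0.5. Sums over gene lists used totals without TMM scaling. The 13771 genes kept by filterByExpr (by sex) were tested with edgeR 4.0.16 under R 4.3.3 by the quasi-likelihood F test, Benjamini-Hochberg adjusted over all of them at 0.05. Sexes were compared without a litter term, with 6 residual degrees of freedom. Litters were compared in a model with sex, with 3, first by the 3 litter coefficients together and then each litter against the mean of the other 3. Ratios were tested by exact permutation with scipy 1.17.1. DESeq2 1.42.0, other scalings and filters, thinning, the litter block and leaving out litters and libraries were alternatives. Scripts were tested on simulated data.

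Labels say that a sample's number is its litter. With sex means removed, litter mates correlated across genes at 0.506, 0.503, 0.696 and 0.367. Pairs of a male and a female from different litters correlated at -0.482 to 0.27, so the number was used as a block in an alternative fit. No pair of libraries of a sex differed by so little as sampling noise (chi-square per degree of freedom of 10.4 or more). The members, gene lists, tests and naming rule were chosen with earlier results of these data known. All 8 members were named, with at most the 3 genes of smallest adjusted p across litters per partner list and the 5 genes most alike to Tnni1 and to the ratio of Tnni1 to Tnni3, of which 1 is not reported here.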

Additional observations from a re-analysis of the deposited data

Results flagged for a closer look

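Of 18 sets of 4 libraries of 1 sex, for member levels and ratios, 2 held a library far from the other 3 by Dixon's test at the 95% level, and chance gives 0.9. Among males, Tnnt1 was lowest in litter 3, at 52.2 CPM, with the other 3 males between 68.2 and 70.6 CPM. The log2 ratio of Tnnt1 to Tnnt2 was lowest in the same male, at -7.93, with the other 3 between -7.46 and -7.36. The female of litter 3 was also the lowest of the 4 females in both measures, at 56.5 CPM and -7.88.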

How the results depend on the processing

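No troponin gene passed by sex under any alternative, and the call across litters kept its side for Tnnc1 and Tnni1 in 19 of 20 alternatives each. The litter block, which pairs male and female, called 29 genes by sex, and 44 without litter 3 (added after seeing the data), where Tnni3 turned to 0.0049 on the log2 scale. In the fit without the block, which ignores the pairing, signs by sex turned for small values when litters or libraries were left out. The ranges were -0.15 to 0.041 for Tnni1, -0.072 to 0.053 for Tnni3, -0.13 to 0.043 for Tnnt1 and -0.047 to 0.13 for Tnnc1. The sign of Tnni1 turned only without the female of litter 4. The ratio by sex ranged from -0.11 to 0.020 for Tnni1 to Tnni3 and from -0.12 to 0.12 for Tnnt1 to Tnnt2. In the same settings, genes past the threshold across litters numbered 1899 to 4586 and troponin genes 1 to 5. For litters 1 to 4 in turn, genes numbered 359 to 2906, 153 to 1407, 1704 to 4177 and 322 to 1984, and troponin genes 0 to 2, 0 to 1, 1 to 4 and 1 to 4. With no filter, litter 2 had 1249 genes, and troponin genes numbered 2, 1 and 5 in litters 1, 2 and 3. With a mean of at least 50 counts, which left out Tnnt3, litter 2 had 350 genes and litter 1 had 2 troponin genes, as it did with mitochondrial genes left out. Litter 4 had 2 troponin genes with library totals alone and when thinned to the smallest total. Why these counts moved was not tested, other than that fewer libraries or genes entered the fits. Counts were lowest for Tnnt3, at 9 to 17 per library and with standard errors by sex of 0.24, and for Tnnc2, at 0 to 5, which was not tested.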
